A study of Mus musculus with 8 samples.

Results

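The insulin-like growth factor (IGF) system of the mouse molar was described through 9 genes: the ligand Igf1, the receptors Igf1r and Insr, and the 6 binding proteins Igfbp2, Igfbp3, Igfbp4, Igfbp5, Igfbp6 and Igfbp7. They were found by matching the Ensembl identifiers of the count tables to gene symbols, and they are 9 of 43629 genes counted. All 9 were among the 17129 genes with enough counts to be tested. RNA sequencing was carried out on lower first molars of 4 K14Cre;Jagged1fl/fl embryos and 4 control littermates, all at E18.5. By their labels the controls are Jagged1fl/fl, so that both groups carry the floxed allele on both chromosomes, and the controls are called WT here as in the study. The Cre is a transgene under the keratin 14 promoter, which is active in epithelium, so that the deletion is epithelial while the tissue sequenced held epithelium, mesenchyme and vessels together. The molars of both sides were pooled so that each embryo gave 1 library, and neither sex nor litter is given for an embryo. The question was how the loss of the Notch ligand Jagged1 from dental epithelium changes gene expression in the whole molar.

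IGF1 and IGF2 are secreted growth factors that signal through the IGF1 receptor, a tyrosine kinase, and its close relative the insulin receptor. In tissue fluid most IGF is held by binding proteins, which prolong its life, keep it from the receptor or deliver it when a protease cuts the complex. Receptor activation is passed by adaptor proteins to the PI3K and AKT kinases and the mTOR branch, and IGFs are known to act on growth and on the differentiation of tooth epithelium and mesenchyme.

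Of the 9 genes, Insr rose and Igfbp4 fell in K14Cre;Jagged1fl/fl molars, and the other 7 did not pass the test. These are 2 of 9 members called by edgeR's quasi-likelihood test at an adjusted p under 0.05, where 16.1% of all genes tested were called. In the upward direction 1 of 9 was called, beside 9.52% of all genes, and in the downward direction 1 of 9, beside 6.61%. Insr and Igfbp4 were also the members whose 4 values in one group all lay outside those of the other, which held for 24.2% of all genes. The study asked for a p of 0.05 or less and a fold change of at least 0.5, which was read here as 0.5 in size on the log2 scale, without adjustment of p. The same pair met this, as did 14.2% of all genes. The log2 fold change was positive for 6 members and negative for 3. Its median was 0.14, against 0.0058 over all genes, and the median size of change without regard to sign was 0.18, against 0.22 over all genes. The members' share of calls was thus near that of all genes.

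Totals ran from 17327224 to 28613574 counts in WT embryos and from 24692128 to 29792467 in K14Cre;Jagged1fl/fl embryos, where 3 counts correspond to 0.0998 to 0.166 CPM, the unit of level used throughout (counts scaled to the library size, here with the TMM factors of edgeR). Over all genes 1631 were called higher and 1133 lower, a split that turned to 1363 and 1448 with upper-quartile scaling. Jag1 had a mean log2 fold change of -1.19 (SE 0.14, adjusted p = 0.00517 by edgeR) and did not overlap between the groups. Mutant K14J26 stood apart, with a TMM factor of 0.843 against 0.969 to 1.04 elsewhere and 60581 CPM of the enamel gene Amelx, where the other mutants had 2465 to 14513 and the WT embryos 364 to 2407. WT embryos J6 and J7 held 408 and 204 CPM of 8 skeletal muscle markers, against 5.81 to 19.2 in the other 6 embryos. Values without these libraries are given beside the calls of members and pathway genes, but not for Jag1, marker genes or neighbouring genes. Mutants K14J28 and K14J29 had 1928 and 1467 CPM of Xist, and the other 6 embryos, among them all WT embryos, at most 1.09 CPM. Xist was thus unbalanced between the groups, and so may be sex, which is not given. With Xist as a covariate, Insr was at 0.73 on the log2 scale (adjusted p = 0.0268 by edgeR) and Igfbp4 at -0.63 (0.0244). Without K14J28 and K14J29 together, they were at 0.69 (adjusted p = 0.0308 by edgeR) and -0.62 (0.0274). In bulk tissue, fewer cells of a type and less RNA per cell cannot be told apart.

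Markers of cell types moved between the groups beside the members. The 7 ameloblast markers summed to 711 to 3421 CPM in WT and 3957 to 114675 CPM in mutant embryos, with 5 called higher. The 6 odontoblast markers ranged over 4494 to 8433 and 7824 to 23998 CPM, with 4 called higher. Of 8 dental mesenchyme markers, some of which the study had picked from these libraries, 5 were called lower, and their sums were 1147 to 1251 against 1009 to 1159.5 CPM. The 8 dental epithelium markers summed to 5283 to 6200.5 CPM in WT and 6267 to 9274 CPM in mutant embryos, with Krt14 alone called higher. The 8 endothelial markers summed to 367 to 404 and 299 to 356 CPM, with Tie1 alone called lower. The sums of the dental epithelium and endothelial lists did not overlap between the groups, but the means of their log2 CPM did. For the dental mesenchyme list it was the reverse. In an exact permutation test of the mean log2 CPM of each of 14 marker lists over the 70 arrangements of 4 against 4 embryos, the ameloblast, dental mesenchyme and osteoblast lists reached the smallest two-sided p that this design allows, 0.0286. The study had already named Amelx, Ambn, Enam, Mmp20, Klk4, Dspp, Dmp1, Pax9 and Barx1 as changed in these libraries. The separation of the ameloblast and mesenchyme lists, and the calls in the odontoblast list, were thus partly fixed beforehand. This p decides nothing about the ameloblast and mesenchyme lists. Of the 6 osteoblast markers, Bglap and Bglap2 were called higher and Runx2 lower, and their sums overlapped at 994 to 1241 and 1120.4 to 1343 CPM. Adjusted over the lists this p is 0.133, and no list could pass 0.05 unless 9 or more reached that smallest p together, so the adjusted test says nothing on whether a list differed. No marker was at 0 in all embryos. Fits with the enamel, skeletal muscle, endothelial or dental epithelium level as a covariate were run for all 9 members and are named where they touched a call or a sign, and the part of the other marker lists was not tested.

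**Figure D1:**
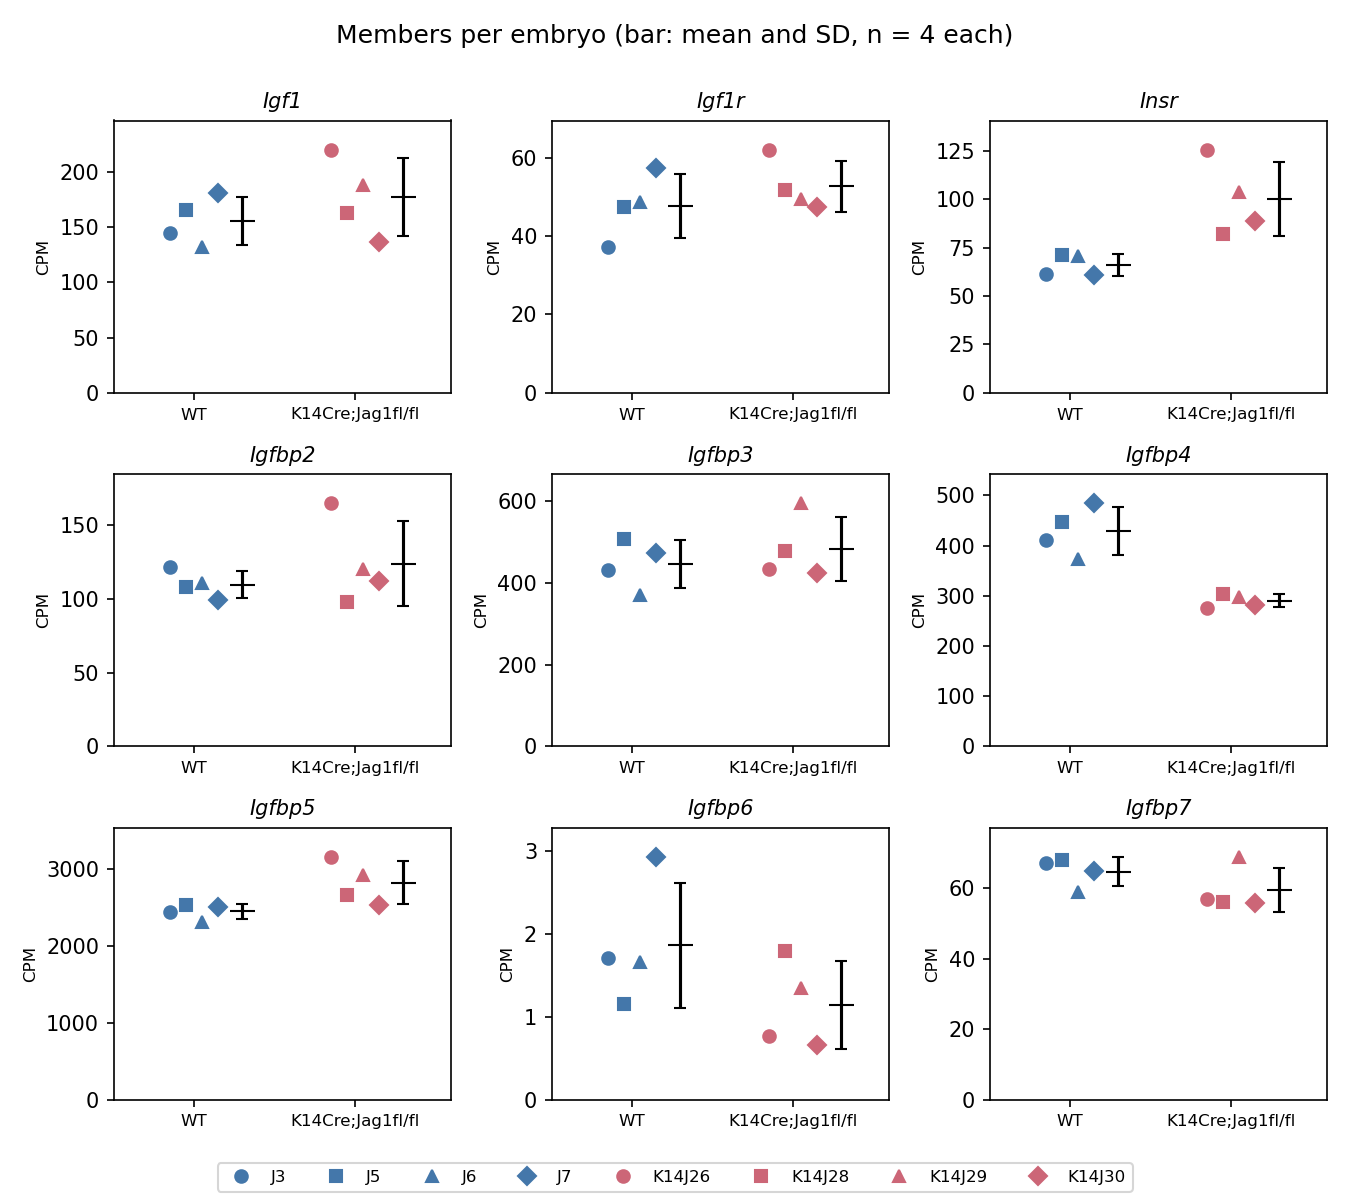
Level of each member in every embryo, in CPM on linear axes that start at 0, with WT embryos in blue and K14Cre;Jagged1fl/fl embryos in red (a marker shape per embryo) and the mean and SD of 4 embryos in black. Insr lies at 60.9 to 71.3 CPM in WT and 82.1 to 125 CPM in mutant embryos, Igfbp4 at 373 to 485 and 277 to 304 CPM, and the other 7 members overlap.

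Igf1 (ENSMUSG00000020053, chromosome 10 of GRCm38, 87858265 to 87937042, plus strand) encodes the growth factor itself. Its WT values were 145 CPM in J3, 166 in J5, 132 in J6 and 181 in J7. The mutants K14J26, K14J28, K14J29 and K14J30 had 220.1, 163, 188 and 137 CPM. The lowest and the highest mutant values enclosed 3 of the 4 WT values, so the groups overlapped. The means were 156 ± 21.7 and 177 ± 35.5 CPM (SD over 4 embryos), and the difference on the log2 scale was 0.18 (95% interval -0.15 to 0.52, adjusted p = 0.408 by edgeR). Without K14J26, the highest embryo, it was 0.06, and with the endothelial marker score as a covariate it was 0.48 (adjusted p = 0.0510).

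The RefSeq start of Igf1 that was matched lies inside the gene as annotated by GENCODE, since Igf1 has several starts. The 250 bases before it (chr10:87860861-87861110 of GRCm38.p6, plus strand) are printed because they were the sole member window with the letters TGGGAA, the core read by RBPJ, the DNA-binding partner of Notch. Capitals mark those letters, found here on the minus strand as TTCCCA, and the letters read by TCF/LEF factors, which were searched as CTTTGA or as CTTTGT on both strands.
Igf1: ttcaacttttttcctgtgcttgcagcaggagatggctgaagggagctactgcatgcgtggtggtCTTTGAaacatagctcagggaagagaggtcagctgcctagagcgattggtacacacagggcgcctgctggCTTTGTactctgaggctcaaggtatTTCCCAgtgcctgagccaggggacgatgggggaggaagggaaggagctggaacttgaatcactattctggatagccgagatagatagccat
The letters TGGGAA occur on either strand in 21.6% of the 32851 RefSeq promoter windows of this length, so 1 match among the members is a description and not a site.

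Igf1r (ENSMUSG00000005533, chromosome 7, 67952827 to 68233668, plus strand) encodes the main signalling receptor for IGF1 and IGF2. WT embryos had 37.2, 47.5, 48.6 and 57.4 CPM. Mutant embryos had 62.0, 51.7, 49.5 and 47.4 CPM. The lowest value belonged to J3 and the highest to K14J26, and the rest of the 2 groups lay among each other. The log2 fold change was 0.14 (95% interval -0.16 to 0.44, adjusted p = 0.476 by edgeR), from 47.7 ± 8.26 to 52.7 ± 6.48 CPM. It was 0.05 without K14J26, 0.04 without J3 and 0.31 without J6 and J7.

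Insr (ENSMUSG00000005534, chromosome 8, 3122061 to 3279617, minus strand) encodes the insulin receptor, which also binds IGF2 and forms hybrid receptors with the IGF1 receptor. In the WT group Insr was at 61.1 CPM in J3, 71.3 in J5, 70.8 in J6 and 60.9 in J7. The mutants K14J26, K14J28, K14J29 and K14J30 had 125, 82.1, 104 and 88.7 CPM. Every mutant lay above every WT embryo, and the mutants spread more widely, with a coefficient of variation of 19.2% against 8.77%. The mean went from 66.0 ± 5.79 CPM in WT to 100.01 ± 19.2 CPM in mutant molars (SD over 4 embryos). Insr thus rose 1.51-fold, or by 0.60 on the log2 scale (SE 0.13, 95% interval 0.31 to 0.89, adjusted p = 0.0207 by edgeR).

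The embryo with the highest Insr value, K14J26, was also the one with the most Amelx. Without it the log2 fold change was 0.47 and the call was kept (adjusted p = 0.0129 by edgeR). The call was lost without J3 (adjusted p = 0.0651), without J7 (0.0696) or without K14J29 (0.0663), at log2 fold changes of 0.56, 0.55 and 0.58. With J6 and J7 both left out, the change was 0.59 at an adjusted p of 0.161, in a fit that called 3 genes higher and 4 lower among all genes. With the level of 5 enamel genes in each embryo entered as a covariate, the Insr log2 fold change shrank to 0.14 (adjusted p = 0.333), in a fit that called 186 genes higher and 112 lower among all genes. With a skeletal muscle or a dental epithelium score as the covariate it was 0.57 (adjusted p = 0.104) and 0.53 (adjusted p = 0.383).

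The receptors were set against each other per kilobase of exon (RPKM), the scale on which levels of different genes are compared here. The ratio of Insr to Igf1r RPKM was 2.004, 1.83, 1.78 and 1.30 in WT embryos and 2.47, 1.94, 2.56 and 2.29 in mutants. Insr transcripts thus outnumbered Igf1r transcripts in each of the 8 embryos. The mean ratio was 1.73 ± 0.304 in WT and 2.31 ± 0.274 in K14Cre;Jagged1fl/fl molars, with K14J28 below the WT embryo J3.

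**Figure D2:**
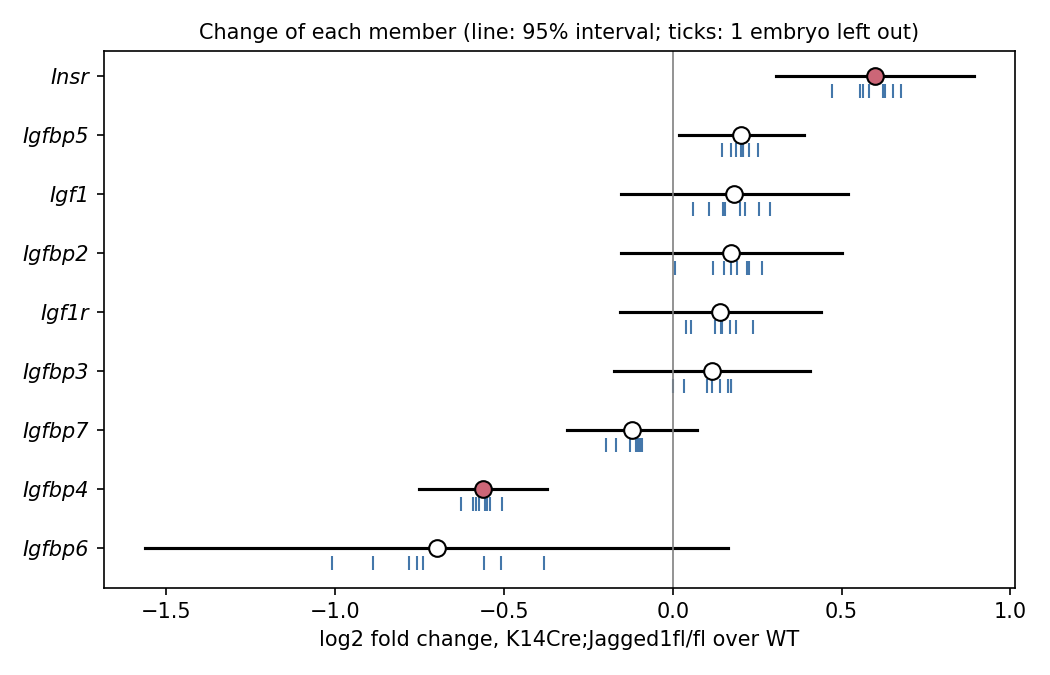
Log2 fold change of each member, K14Cre;Jagged1fl/fl over WT, as a point with its 95% interval (line) and, below it, the value with 1 embryo left out in turn (blue ticks). The filled points, Insr at 0.60 and Igfbp4 at -0.56, passed an adjusted p of 0.05 in edgeR, and the interval of Igfbp6 is the widest.

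Igfbp4 (ENSMUSG00000017493, chromosome 11, 99041244 to 99054392, plus strand) encodes a binding protein that inhibits IGF action until a protease cuts it. WT embryos had 411, 446, 373 and 485 CPM. Mutant embryos had 277, 304, 297 and 282 CPM. Every mutant lay below every WT embryo, and the mutants were closer to each other, with a coefficient of variation of 4.40% against 11.2%. The mean was 429 ± 47.8 CPM in WT and 290.1 ± 12.8 CPM in mutant molars (SD over 4 embryos). Igfbp4 fell to 0.677 of its WT level, which is -0.56 on the log2 scale (SE 0.08, 95% interval -0.75 to -0.37, adjusted p = 0.00855 by edgeR).

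The Igfbp4 call was kept with each single embryo left out, at log2 fold changes from -0.63 to -0.51 and adjusted p from 0.0059 to 0.0382 by edgeR. Without K14J26 it was -0.54. The call was lost without J6 and J7 together (-0.57, adjusted p = 0.114), with the skeletal muscle score as a covariate (-0.57, adjusted p = 0.0522), with the enamel gene level (-0.43, adjusted p = 0.0790) and with the dental epithelium score (-0.36, adjusted p = 0.320). The direction held in each of these fits. The dental mesenchyme list, of which 5 of 8 genes fell, moved the same way as Igfbp4, and its part in the Igfbp4 value was not tested.

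Igfbp5 (ENSMUSG00000026185, chromosome 1, 72857932 to 72874884, minus strand) encodes a binding protein that is abundant in bone and connective tissue, where it attaches to matrix. It had 2443, 2534, 2315 and 2504 CPM in WT embryos. The mutants had 3156, 2661, 2925 and 2533 CPM. The 3 highest values were those of mutants, and K14J30 lay just under the WT embryo J5. Its mean was 2449 ± 97.3 CPM in WT and 2819 ± 278 CPM in mutant molars, and the log2 fold change 0.20 (95% interval 0.02 to 0.39). The unadjusted p was 0.0353 and the adjusted p 0.116 by edgeR, so that Igfbp5 was not called. With the endothelial score as a covariate it was 0.33 (adjusted p = 0.0454), with the enamel gene level 0.05 (adjusted p = 0.820), and with library size alone as the scaling 0.09 (adjusted p = 0.435).

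The windows upstream of Igfbp4 (chr11:99040994-99041243, plus strand) and Igfbp5 (chr1:72874866-72875115, minus strand; both RefSeq on GRCm38.p6, 250 bases, printed in the direction of the gene) are shown because these genes had the lowest adjusted p and the highest level among the binding proteins. Capitals mark the letters TATAAA of a TATA box.
Igfbp4: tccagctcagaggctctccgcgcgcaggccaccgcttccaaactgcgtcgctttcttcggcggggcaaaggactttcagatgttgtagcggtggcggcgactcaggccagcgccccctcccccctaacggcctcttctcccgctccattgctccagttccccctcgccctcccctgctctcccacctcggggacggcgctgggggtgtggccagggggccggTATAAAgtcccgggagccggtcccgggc
Igfbp5: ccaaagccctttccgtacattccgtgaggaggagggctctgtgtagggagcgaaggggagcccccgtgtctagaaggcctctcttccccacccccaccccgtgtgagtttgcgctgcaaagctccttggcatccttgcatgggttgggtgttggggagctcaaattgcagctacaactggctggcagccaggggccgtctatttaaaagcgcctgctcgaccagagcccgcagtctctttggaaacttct
The Igfbp4 window holds TATAAA on the gene's strand from 28 to 23 bases before the start, as 7.59% of all windows hold it somewhere. Neither window holds the RBPJ or the TCF/LEF letters, a GC box (searched as GGGCGG) or the FoxO letters (searched as GTAAACA) on either strand. The TCF/LEF letters are found in 27.6% of all windows, the GC box in 32.7% and the FoxO letters in 3.17%. Among the 8 members with a window, the GC box was found before Igf1r, Igfbp2 and Igfbp7, and the TCF/LEF letters before Igf1r and Igf1. No searched motif was found before Igfbp3, Igfbp5 or Igfbp6. For Igfbp2 this holds for the window chr1:72824230-72824479, while a further window of the gene, chr1:72825137-72825386, held no searched motif.

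Igfbp3 (ENSMUSG00000020427, chromosome 11, 7206086 to 7213923, minus strand) encodes the main carrier of IGF in blood. It had 432, 508, 370.0 and 473 CPM in WT and 434, 478, 595 and 424 CPM in mutant embryos. K14J29 was highest and J6 lowest, and the other 6 embryos were mixed. Igfbp3 had a log2 fold change of 0.12 (95% interval -0.18 to 0.41, adjusted p = 0.553 by edgeR). Its sign was not stable: the value was -0.06 without K14J28 and K14J29 and -0.08 with Xist as a covariate, 4.4e-05 without K14J29 alone, 0.12 without K14J28 alone and 0.03 without J6.

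Igfbp2 (ENSMUSG00000039323, chromosome 1, 72824503 to 72852474, plus strand) encodes a binding protein of fetal tissues. WT embryos had 122, 108, 111 and 99.2 CPM, and mutant embryos 165, 98.3, 120.1 and 112 CPM. K14J26 stood above the rest, and the other 3 mutants lay within or just below the WT range. The WT mean was 109.9 ± 9.30 CPM and the mutant mean 124 ± 28.9 CPM, for a log2 fold change of 0.17 (95% interval -0.15 to 0.50, adjusted p = 0.421 by edgeR). Without K14J26 it was 0.01.

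Igfbp7 (ENSMUSG00000036256, chromosome 5, 77349240 to 77408041, minus strand) encodes a related protein of vessel walls with low affinity for IGF. It had 67.1, 67.9, 58.9 and 64.7 CPM in WT and 56.9, 56.0, 68.9 and 55.8 CPM in mutant embryos. Of the mutants, 3 lay below every WT embryo, and K14J29 lay above them all. The log2 fold change was -0.12 (95% interval -0.31 to 0.07, adjusted p = 0.340 by edgeR), and -0.20 without K14J29 (adjusted p = 0.124). An exon of Igfbp7 shares up to 85 bases with Polr2b on the opposite strand, and reads from such a stretch cannot be assigned in libraries that do not mark strand.

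Igfbp6 (ENSMUSG00000023046, chromosome 15, 102144362 to 102149511, plus strand), whose protein prefers IGF2, was at the lowest level of the members. It rested on 31, 28, 32 and 87 counts in WT and 16, 54, 39 and 17 counts in mutant embryos. These are 1.72, 1.15, 1.66 and 2.94 CPM and 0.769, 1.80, 1.35 and 0.659 CPM, all above the level of 3 counts. J7 was highest and the groups overlapped. For Igfbp6 the log2 fold change was -0.70 (95% interval -1.56 to 0.16, adjusted p = 0.226 by edgeR), the largest in size of the 9 and the least precise. It was -0.38 without J7, -0.30 without J6 and J7 and 0.03 with the enamel gene level as a covariate, but -1.01 without K14J28, -1.41 without K14J28 and K14J29 and -1.48 with Xist as a covariate, where the adjusted p was 0.0845, 0.0676 and 0.0509.

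The members spanned a wide range of levels. In WT molars Igfbp5 was highest at 408 ± 16.2 RPKM, followed by Igfbp3 at 142 ± 18.9 and Igfbp4 at 97.1 ± 10.8. Igfbp2 at 59.5 ± 5.04 and Igfbp7 at 53.5 ± 3.38 RPKM had overlapping values, but not with the length of the longest transcript, where they made up 8.71 to 11.05% and 6.19 to 6.63% of the binding protein pool. Igf1 followed at 15.7 ± 2.20, then Insr at 4.80 ± 0.421, Igf1r at 2.84 ± 0.492 and Igfbp6 at 1.68 ± 0.681 RPKM, of which Igf1r and Igfbp6 overlapped. The order of the means changed at 1 place in K14Cre;Jagged1fl/fl molars, where Igfbp4 at 65.7 ± 2.89 RPKM no longer lay above Igfbp2 at 67.1 ± 15.6 RPKM, and these values overlapped. Per exon union this rested on K14J26, with 89.4 RPKM of Igfbp2, while in the other 3 mutants Igfbp4 lay above Igfbp2, at 68.9, 67.3 and 64.0 against 53.2, 65.0 and 60.9 RPKM. With the length of the longest transcript, Igfbp2 lay above Igfbp4 also in K14J29 (9.56 against 8.08% of the binding protein pool) and K14J30 (10.7 against 9.17%). WT values of Igfbp4, 84.5 to 109.7 RPKM, lay above those of Igfbp2, 53.7 to 65.9 RPKM.

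Taken as shares of the summed RPKM of the 6 binding proteins, Igfbp5 and Igfbp4 made up a different part of the pool in each group. The share of Igfbp4 was 12.2, 12.6, 12.1 and 13.9% in WT embryos and 7.25, 8.99, 7.76 and 8.78% in mutants. The share of Igfbp5 was 53.5, 52.7, 55.2 and 52.9% in WT embryos and 60.8, 57.8, 56.1 and 57.9% in mutants. Neither share overlapped between the groups, and their means went from 12.7 ± 0.839 to 8.19 ± 0.827% and from 53.6 ± 1.13 to 58.2 ± 1.95%. The share of Igfbp7 went from 7.02 ± 0.206 to 6.10 ± 0.482%, also without overlap, while Igfbp3 was at 18.6 ± 1.42 and 19.1 ± 2.47% and Igfbp2 at 7.84 ± 0.923 and 8.29 ± 1.49%. The summed RPKM itself was 762 ± 45.6 in WT and 807 ± 70.1 in mutant molars, with overlap. The ratio of Igfbp5 to Igfbp4 RPKM was 4.37, 4.18, 4.56 and 3.80 in WT embryos and 8.39, 6.43, 7.23 and 6.59 in mutants. Its size depends on the gene length used, here the exon union, and it was not taken with the longest transcript. These shares and ratios are descriptions without a test, since the parts of a pool are bound to each other.

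**Figure D3:**
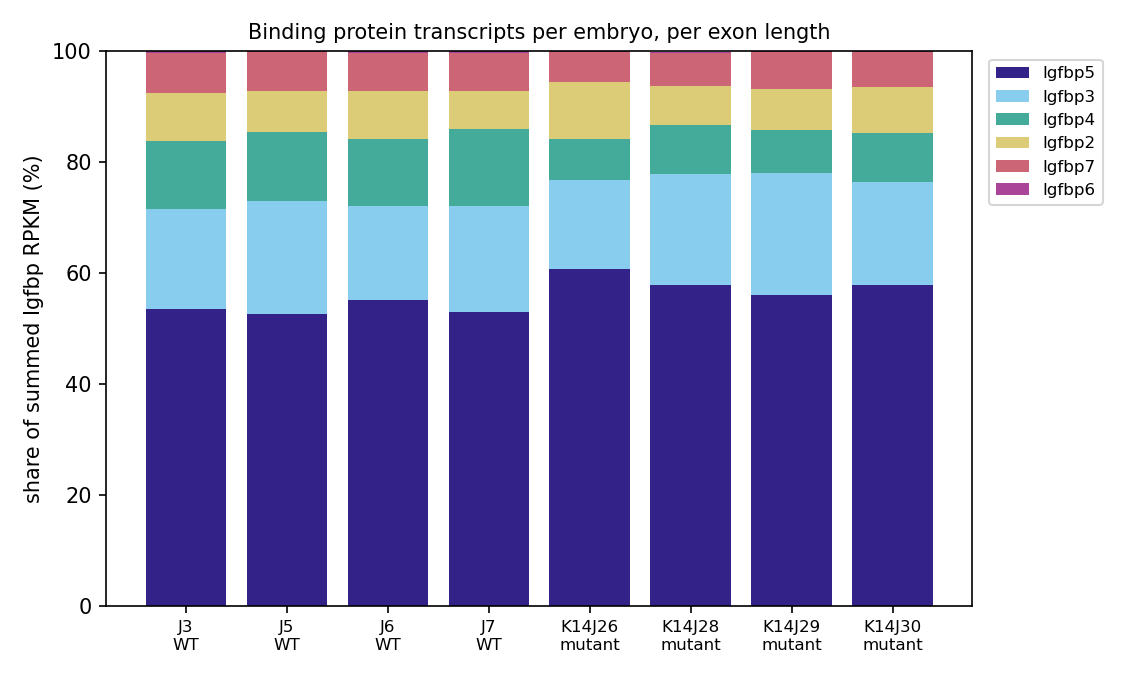
Share of each binding protein in the summed Igfbp RPKM (percent, stacked to 100) for the 8 embryos, WT left and K14Cre;Jagged1fl/fl right. Igfbp5 holds the largest part in each embryo, 52.7 to 60.8%, and the Igfbp4 part is 12.1 to 13.9% in WT and 7.25 to 8.99% in mutant embryos.

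Igfbp2 and Igfbp5 lie tail to tail on chromosome 1, 5458 bases apart, and neither passed the test. Igfbp3 lies 3540 bases from Igfbp1, the binding protein made by liver, which was left out of the test for its low counts (mean 0.0547 CPM). Igfbp4 lies between Top2a, at a distance of 17055 bases, and Tns4, at 11286 bases. Neither neighbour was called lower. Top2a, which acts in cell division, was at -0.36 on the log2 scale (adjusted p = 0.411 by edgeR). Tns4, which encodes a focal adhesion protein, rose by 1.13 on the log2 scale (adjusted p = 0.0115).

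For likeness of pattern, log2 CPM values were centred on their mean over the 8 embryos and the root mean square difference between genes was taken. Closest to Igfbp4 were Unc5c (0.0562), Fzd1 (0.0771) and Mir8097 (0.0825). Closest to Insr were Cdc42bpg (0.0594), Fam214b (0.0607) and Plekhb2 (0.0616). Closest to Igfbp5 were Nptn (0.0364), Lima1 (0.0390) and St7l (0.0423). These are differences in log2 units over the same 8 libraries and are given as a description.

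Beyond the 9 members, 58 other genes of the IGF and insulin pathway were listed, and 51 of them had enough counts to be tested. Of the 51, 8 rose and 4 fell, beside 9.52% and 6.61% of all genes tested, and the median log2 fold change was 0.09. With J6 and J7 left out together, or with the enamel, muscle or epithelium score as a covariate, none of the 51 was called. With single embryos left out, the number that rose went from 2 without K14J29 to 13 without K14J28, and the number that fell from 0 (without J3, J6, J7 or K14J29) to 8 (without K14J28). It was 3 higher without J7, 4 higher and 1 lower without J5, 5 higher without J3, 1 lower without K14J30, and 9 higher and 7 lower without K14J26. With library size alone as the scaling 4 were higher and 3 lower, and with DESeq2 10 and 6. The calls of Pik3r3, Tsc1, Tsc2, Rptor, Socs2 and Eif4ebp1 were lost with library size alone (adjusted p from 0.0541 to 0.279 by edgeR). That of Tsc2 was also lost with relative log expression (0.0515) or upper-quartile scaling (0.0595) and without the 20 most abundant genes (0.0525). Testing with no count filter ended those of Akt1 (0.0606), Tsc2 (0.0562) and Rptor (0.0527). Xist as a covariate ended those of Pappa (0.0782), Akt1 (0.122) and Rptor (0.0508). The same calls were lost without K14J28 and K14J29 together (0.0881, 0.0908 and 0.0615). The endothelial score ended those of Pappa (0.137), Socs2 (0.0561), Akt1 (0.0994), Tsc2 (0.0694), Rptor (0.0570) and Ddit4 (0.0523).

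Among ligands, carriers and other receptors, none of 4 tested genes was called. Igf2, the fetal IGF, had 714, 994, 737 and 1091 CPM in WT and 569, 1052, 792 and 606 CPM in mutant embryos. The values overlapped, with a log2 fold change of -0.23 (SE 0.21, adjusted p = 0.469 by edgeR). Igf2r, the receptor that clears IGF2, went from 130.1 ± 10.5 to 143 ± 19.2 CPM (log2 fold change 0.14, adjusted p = 0.352). Igfbpl1, which encodes a protein like the binding proteins, had 149 to 188 CPM in WT and 52.8 to 132 CPM in mutant embryos, without overlap, at a log2 fold change of -0.69 (adjusted p = 0.0746). The genes Ins1, Ins2, Insrr and Igfbp1 were not tested for want of counts.

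Of 6 tested proteases of binding proteins and their inhibitors, 1 fell. This was Pappa, the metalloprotease known for cutting IGFBP4. It had 5.37, 4.08, 8.76 and 12.96 CPM in WT and 1.68, 3.59, 2.01 and 3.57 CPM in mutant embryos, without overlap, and J6 and J7 held the highest values. The log2 fold change was -1.52 (SE 0.39, adjusted p = 0.0325 by edgeR). It was -1.36 without K14J26 (adjusted p = 0.0406), -0.79 without J6 and J7 together (adjusted p = 0.256), -0.90 with the skeletal muscle score as a covariate (adjusted p = 0.135) and -0.75 with the enamel gene level, and the call held in 4 of the 8 fits with 1 embryo left out. Stc1 and Stc2, inhibitors of this protease, had log2 fold changes of -0.43 (adjusted p = 0.219) and 0.13 (adjusted p = 0.725).

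In the growth hormone axis, 1 of 4 tested genes fell. Socs2, a feedback inhibitor of growth hormone signalling, had 109, 103, 91.1 and 89.6 CPM in WT and 58.4, 90.0, 68.3 and 67.9 CPM in mutant embryos, with K14J28 just above J7 (log2 fold change -0.46, adjusted p = 0.0403 by edgeR). It was -0.38 without K14J26 (adjusted p = 0.0456), -0.58 without J6 and J7 (adjusted p = 0.151) and -0.13 with the enamel gene level as a covariate (adjusted p = 0.612), and the call held in 2 of the 8 fits with 1 embryo left out. The growth hormone receptor Ghr was at 65.6 ± 2.17 and 67.1 ± 3.80 CPM. None of 9 tested receptor adaptors and brakes was called, including Irs1, Irs2 and Grb10. Grb14, which inhibits the insulin receptor kinase, went from 11.8 ± 1.46 to 18.2 ± 5.30 CPM (log2 fold change 0.63, adjusted p = 0.0571).

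Downstream, 3 of 15 genes of the PI3K, AKT and FoxO list rose and 1 fell. Foxo1, a transcription factor that AKT holds out of the nucleus, had 145, 116, 144 and 125 CPM in WT and 221, 164, 193 and 183 CPM in mutant embryos. It rose by 0.52 on the log2 scale (SE 0.11, adjusted p = 0.0175 by edgeR), from 133 ± 14.4 to 190.2 ± 23.5 CPM. The PI3K regulatory subunit Pik3r3 rose by 0.39 and Pdpk1, the kinase that activates AKT, by 0.38, with adjusted p of 0.0144 and 0.0115. Akt1 fell by 0.21 (adjusted p = 0.0351), from 261 ± 3.86 to 226 ± 10.03 CPM. The call of Pdpk1 held in 8 of 8 fits with 1 embryo left out, that of Pik3r3 in 6, that of Foxo1 in 5 and that of Akt1 in 2. Without K14J26 the log2 fold changes of Foxo1, Pik3r3, Pdpk1 and Akt1 were 0.44, 0.38, 0.34 and -0.22, all called, and without J6 and J7 they were 0.54, 0.37, 0.40 and -0.20, at adjusted p from 0.134 to 0.215. With the enamel gene level as a covariate they were 0.27, 0.34, 0.27 and -0.20, at adjusted p from 0.115 to 0.245.

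In the mTOR branch, 5 of 10 genes rose and 1 fell. Mtor, the kinase itself, had 61.6, 63.5, 63.3 and 67.9 CPM in WT and 104, 80.1, 87.4 and 83.3 CPM in mutant embryos. All mutants lay above all WT embryos, and the log2 fold change was 0.47 (SE 0.09, adjusted p = 0.0142 by edgeR). Ddit4, Tsc1 and Tsc2, which restrain mTOR, rose by 0.51, 0.35 and 0.27 (adjusted p = 0.0182, 0.0115 and 0.0494), and Rptor, a scaffold of the mTOR complex, by 0.23 (adjusted p = 0.0250). Eif4ebp1, a repressor of translation that mTOR switches off, fell by 0.51 (adjusted p = 0.0325). The genes that rose thus include mTOR itself and genes whose products restrain it. The call held in 8 of 8 fits with 1 embryo left out for Tsc1, in 7 for Mtor, in 4 for Ddit4, in 3 for Rptor, in 2 for Eif4ebp1 and in 1 for Tsc2. Without K14J26, which was highest for Mtor, the log2 fold changes of Mtor, Ddit4, Tsc1, Tsc2, Rptor and Eif4ebp1 were 0.38, 0.50, 0.32, 0.22, 0.23 and -0.40, and the call of Tsc2 alone was lost (adjusted p = 0.0625). Without J6 and J7 they were 0.50, 0.58, 0.34, 0.27, 0.25 and -0.52, at adjusted p from 0.126 to 0.228. With the enamel gene level as a covariate they were 0.25, 0.29, 0.29, 0.14, 0.24 and -0.20, at adjusted p from 0.101 to 0.510. None of the 3 IGF2 mRNA binding proteins was called, and the lowest of them, Igf2bp1, was at -1.11 on the log2 scale (adjusted p = 0.0869).

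**Figure D4:**
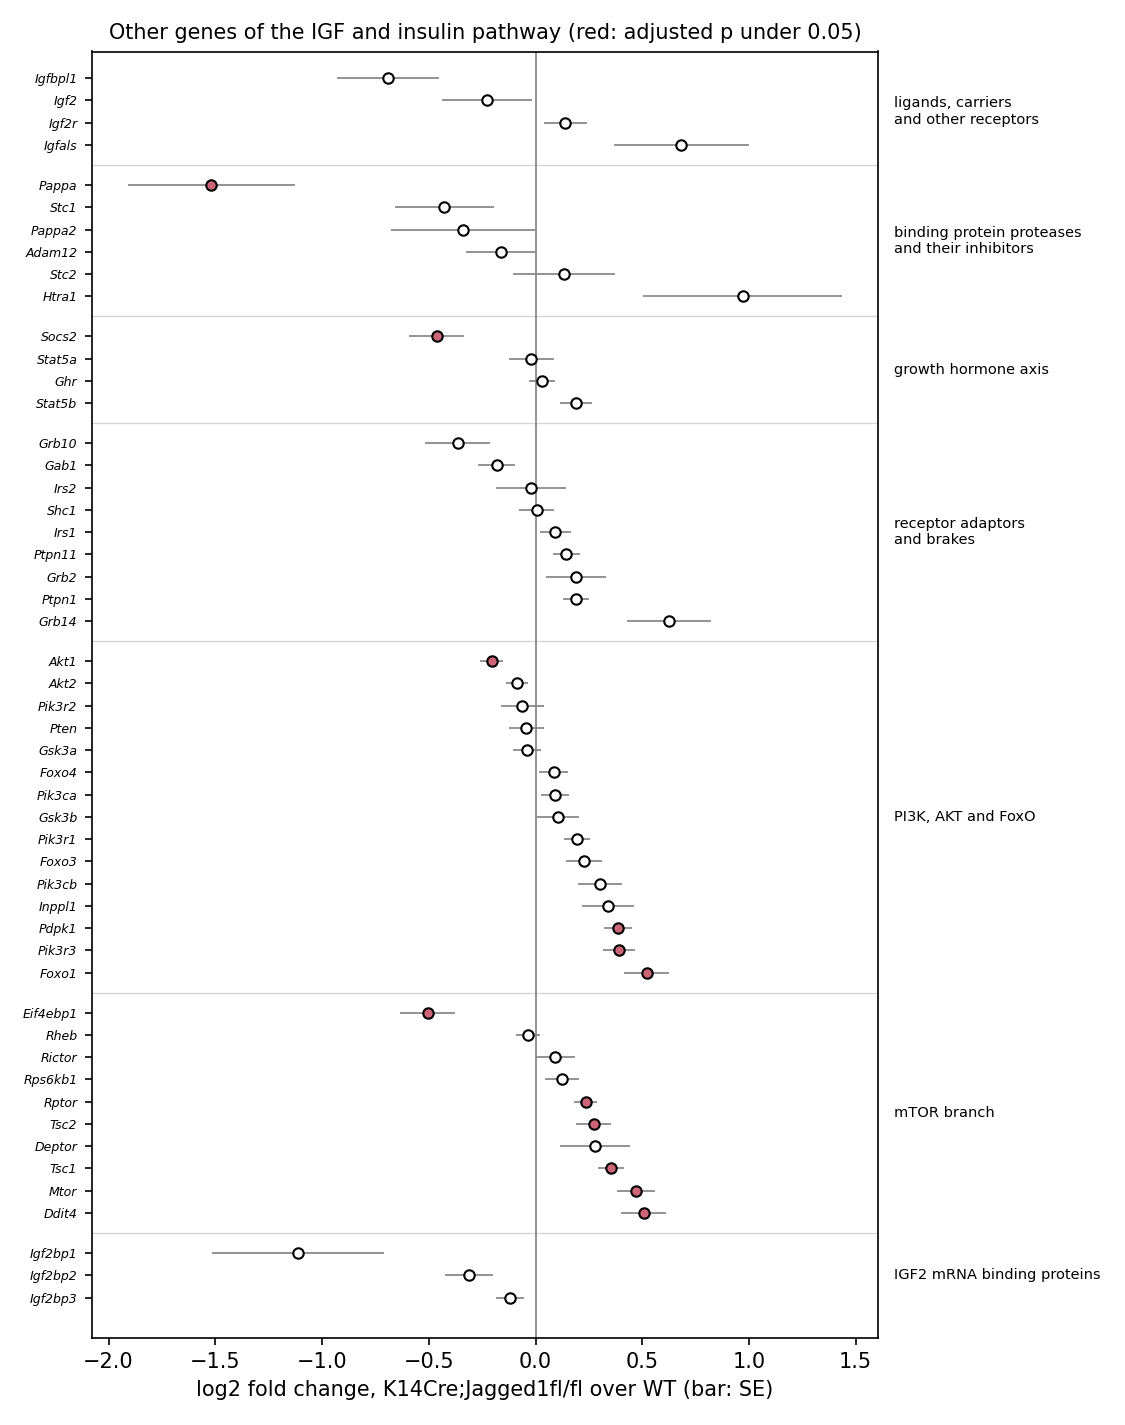
Log2 fold change, K14Cre;Jagged1fl/fl over WT, with its SE for the 51 tested pathway genes other than the members, in 7 lists. Red points passed an adjusted p of 0.05 in edgeR: 8 lie right of 0, all in the PI3K, AKT and FoxO and the mTOR lists, and 4 lie left of it (Pappa, Socs2, Akt1 and Eif4ebp1).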

How the data were processed

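RNA of pooled left and right lower molars was sequenced from 8 embryos. Single-end reads were trimmed (Trimmomatic) and mapped to GRCm38 (STAR) by the authors, who deposited 1 table of raw counts per Ensembl gene for each embryo. The counter is GenomicRanges in the methods and featureCounts in the submitters' processing notes, and the RNA reagent is RNeasy in the methods and Trizol in the labels. Treatment of strand and of reads with several matches is not given in the sources used here, and the library kit does not mark strand. Overlapping genes are therefore uncertain.

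Symbols and positions came from GENCODE M21, which held 42462 of 43629 identifiers. Genes with 10 counts or more in 2 or more embryos of a group were kept (17129) and tested with edgeR 4.0.16 (R 4.3.3): TMM scaling, quasi-likelihood test, no covariate, Benjamini-Hochberg adjustment over the genes kept. CPM is scaled to the TMM-adjusted library, RPKM is CPM per kilobase of exon union, and SE is the log2 fold change over the square root of F. In the exact test, scores are means of log2 CPM. Whether the 4 embryos per group or the depth limits precision more was not tested, and the level of 3 counts covers counting error only. Within groups, all 12 pairs of embryos differed by more than counting noise (chi-square per degree of freedom of at least 7.17). Separate embryos are bound to exceed counting noise, so this is a description only.

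By rule, the text names all members, Igf2, Igf2r and Igfbp1, the called pathway genes (up to 5 per list, by size of change) and the 3 genes most like Insr, Igfbp4 and Igfbp5. Rptor, the sixth called gene of its list, pathway genes that were not called, the neighbouring genes and the marker genes named were chosen after their values were seen. One further pathway gene was left out of the lists and is not reported here. Members, pathway lists and marker lists were chosen with earlier results of these data known. Alternatives were other scalings, DESeq2 1.42.0, other filters, leaving out embryos, and covariates. The script was tested on simulated data. Promoters are RefSeq windows, with 8 of 9 members matched.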

Additional observations from a re-analysis of the deposited data

Results flagged for a closer look

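In the mutant group, Igfbp7 had 68.9 CPM in K14J29 while the other 3 mutants lay between 55.8 and 56.9 CPM, so that the gap to its nearest neighbour took 0.917 of the range of the group. This embryo was therefore far from the others by Dixon's criterion. Of 18 groups of member values tested in this way, 1 stood out, and chance alone gives about 1 in 20.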

How the results depend on the processing

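The number of members called higher, 1 as reported, was 0 without J6 and J7 together and 0 with the enamel, skeletal muscle or dental epithelium score as a covariate, and it was 2 with the endothelial score, which added Igfbp5 (log2 fold change 0.33, adjusted p = 0.0454 by edgeR). It ranged from 0 to 1 with 1 embryo left out. The number called lower, 1 as reported, was 0 in the same 4 fits. Signs turned with the enamel gene score for Igf1 (-0.0853), Igf1r (-0.0365), Igfbp2 (-0.27) and Igfbp6 (0.0332), and for Igfbp3 without K14J28 and K14J29 (-0.0639) and with Xist as a covariate (-0.0781). The causes were not tested. Over the alternatives the adjusted p ran from 0.0007 to 0.383 for Insr and from 2.99e-07 to 0.320 for Igfbp4. All 9 members kept their sign under DESeq2 and the 3 other scalings (upper-quartile, relative log expression, library size alone). Igfbp5 has no value without the 20 most abundant genes, as it is one of them. Over all genes, calls numbered 3 higher and 4 lower without J6 and J7, 0 and 1 with the epithelium score, 44 and 43 with the muscle score, 186 and 112 with the enamel score, and 250 and 170 without K14J29 to 2479 and 1845 without K14J28, against 1631 and 1133 as reported. With the length of the longest transcript in place of exon union, Igfbp5 made up 48.4 and 52.7% of the binding protein pool in WT and mutant molars and Igfbp4 13.2 and 8.56%. No paired analysis was possible because the embryos of the 2 groups share no replicate numbers. Igfbp6 rests on the fewest counts of the members, 16 to 87 per embryo.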
